A study of Mus musculus with 12 samples.

Results

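The Cyp3a enzymes are cytochrome P450s of the endoplasmic reticulum, and they are described here by 6 probe sets of an Affymetrix mouse array measured in the livers of 12 female mice. The 6 were all those, of 22626 probe sets that are not controls, whose gene symbol in the platform annotation is Cyp3a11, Cyp3a13, Cyp3a16, Cyp3a25, Cyp3a41a or Cyp3a44. They stand for 6 of 13319 genes named on the array. Each member had 1 probe set. That of Cyp3a41a is annotated jointly to its copy Cyp3a41b, so its signal belongs to both genes and is called Cyp3a41 below. All 7 symbols matched the RefSeq gene table.

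All mice were C57BL/6 females, divided into 4 groups of 3, and each liver was hybridised to its own array. The vehicle group received 100 µl sesame oil under the skin 2 times a week for 3 weeks, and the testosterone group received 0.9 mg testosterone in the same volume of oil. Livers of a first pair of groups were collected when treatment ended, and those of a second pair after a withdrawal period, for which the sample labels state 12 weeks and the series' design text states 3 weeks. No age of the mice was given in the labels. The series' title names lasting changes after testosterone, so the comparison asks which effects were present at the end of treatment and which after withdrawal.

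Cyp3a enzymes carry a heme group, take electrons from NADPH through the reductase Por and from cytochrome b5, and oxidise steroids, bile acids and a large share of drugs. In mouse liver Cyp3a11 is the main adult form and is induced through the nuclear receptor PXR, Cyp3a41 and Cyp3a44 are known as female-predominant forms, and Cyp3a16 is known from the fetal and newborn liver. Cyp3a13 and Cyp3a25 are expressed in both liver and intestine. The sex-biased forms are known to depend on the sex-specific rhythm of growth hormone secretion.

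In the RefSeq gene table, Cyp3a16, Cyp3a41b, Cyp3a41a, Cyp3a44, Cyp3a11 and Cyp3a25 follow each other on chromosome 5 with 0 other protein-coding genes between them, whereas Cyp3a13 lies apart, with 121 protein-coding genes between it and the nearest gene of this cluster, Cyp3a57. The windows around the start sites of these genes (250 bases before and 50 after the start, from RefSeq) were compared by alignment. Those of Cyp3a16, Cyp3a41a, Cyp3a41b and Cyp3a44 were 89.9% to 97.0% identical to each other. That of Cyp3a11 was 69.8% to 74.8% identical to these 4, and those of Cyp3a13 and Cyp3a25 were at most 54.4% identical to any other. For comparison, the window of Cyp3a44 had a median identity of 45.1%, and at most 51.9%, with 1692 windows of other genes on chromosome 5.

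**Figure D1:**
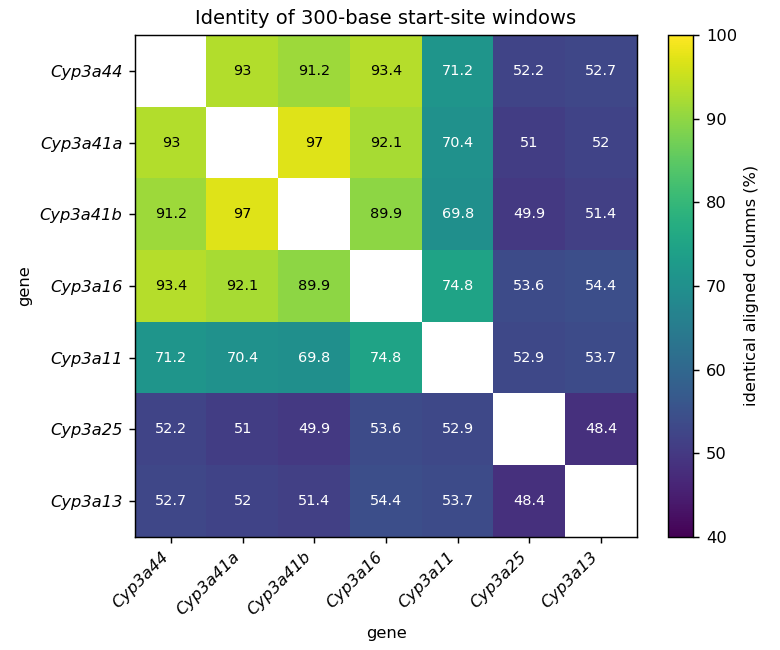
Percent of identical aligned columns between the 300-base start-site windows of the 7 Cyp3a genes behind the 6 probe sets, shown as colour and number for each pair of genes (rows and columns). The block of 4 genes at the upper left lies between 89.9% and 97.0%, and Cyp3a11 lies between 69.8% and 74.8% with that block.

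A stretch of 40 bases is shown to compare the cluster's windows letter by letter. It is printed for the 4 similar genes and for Cyp3a11, because the probe sets of the first 4 read lower in testosterone mice, for Cyp3a16 without passing the test, and that of Cyp3a11 did not. Capitals mark the letters ATCAAT, the core that ONECUT factors such as Onecut1 bind. All are 5′ to 3′ on the gene's own strand, the minus strand of GRCm38.p6, at chr5:145805919-145805958 (Cyp3a44), chr5:145720181-145720220 (Cyp3a41a), chr5:145584775-145584814 (Cyp3a41b), chr5:145469772-145469811 (Cyp3a16) and chr5:145879914-145879953 (Cyp3a11).
Cyp3a44: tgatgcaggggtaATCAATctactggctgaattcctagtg
Cyp3a41a: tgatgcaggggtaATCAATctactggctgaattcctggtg
Cyp3a41b: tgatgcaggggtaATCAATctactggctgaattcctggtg
Cyp3a16: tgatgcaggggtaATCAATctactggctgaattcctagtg
Cyp3a11: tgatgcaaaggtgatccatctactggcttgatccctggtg

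Counted from 1 at the left end, Cyp3a16 had 0 differences from Cyp3a44 in this stretch, both Cyp3a41 copies had 1 (A37G), and Cyp3a11 had 8, of which 1 lies inside the capitals (A17C). The comparison of this stretch was chosen after the sequences and the signals had been seen. Because it was placed on a match in Cyp3a44, a match in the near copies of that gene is no separate result. Cyp3a13, whose probe set was also called lower at the end of treatment, had 0 matches to ATCAAT in its window. The letters ATCAAT occurred in 4 of the 7 Cyp3a windows and in 7.76% of the 27025 windows searched; the 4 are near copies of each other and do not count as separate occurrences. A match is a description of the letters and was not tested as a binding site.

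The bases before the start site are also given whole for the brightest of the forms that fell and for the main adult form, to show 250 bases of each. Capitals mark, on either strand, ATCAAT, the TATA-like letters TATAAA, and the receptor cores AGTTCA, which reads from the other strand as TGAACT here, and AGGTCA, which PXR and other nuclear receptors use. Neighbouring matches may touch but none of these overlapped here. The positions are chr5:145720137-145720386 for Cyp3a41a and chr5:145879855-145880104 for Cyp3a11, both on the minus strand of GRCm38.p6.
Cyp3a41a: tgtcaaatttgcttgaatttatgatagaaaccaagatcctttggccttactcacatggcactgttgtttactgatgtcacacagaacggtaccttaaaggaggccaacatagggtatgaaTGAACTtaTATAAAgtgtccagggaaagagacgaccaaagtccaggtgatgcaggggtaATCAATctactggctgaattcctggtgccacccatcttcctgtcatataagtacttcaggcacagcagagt
Cyp3a11: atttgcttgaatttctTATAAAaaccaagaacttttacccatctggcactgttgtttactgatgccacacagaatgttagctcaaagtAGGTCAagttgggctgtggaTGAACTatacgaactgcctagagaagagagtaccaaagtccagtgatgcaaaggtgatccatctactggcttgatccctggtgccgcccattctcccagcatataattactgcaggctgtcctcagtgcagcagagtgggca

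Of 6 motifs searched in the 300-base windows, TATAAA was found in 5 of the 7 genes (14.2% of all windows), AGTTCA in Cyp3a11, Cyp3a41a and Cyp3a41b (14%), AGGTCA in Cyp3a11, Cyp3a25 and Cyp3a44 (16%), and AGAACA, a core of the androgen and glucocorticoid receptors, in Cyp3a11, Cyp3a16 and Cyp3a25 (19%). TTCNNNGAA, the letters bound by STAT5, was found in 0 of the 7 windows and in 8.47% of all windows. Cyp3a13 had 0 matches to any of the 6.

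Array medians lay between 20.03 and 22.44, and no arrays held identical values. The labelled tissue was checked by hepatocyte markers, of which 7 of 8 were on the array and all 7 passed the signal filter, with sums between 27180 and 35760 over all mice. Of the small intestine markers, 5 of 8 were on the array and 1 passed the filter; Vil1 and Cdx1 lay at or under the signal floor in every mouse and Lct in every vehicle mouse but not in every testosterone mouse. The sums of the small intestine and exocrine pancreas markers were higher in testosterone mice at both times and are given beside Cyp3a11. In whole liver, fewer cells of a type and less RNA per cell cannot be told apart. The 3' to 5' ratio of the actin control probe sets, which rises with RNA breakdown, was 2.11 ± 0.0769 (SD, n = 3) under testosterone and 1.52 ± 0.108 (SD, n = 3) under vehicle when treatment ended, a difference that a two-sided exact permutation test put at p = 0.1, the smallest that 3 against 3 allows. The 2 groups did not overlap at that time (2.034 to 2.188 under testosterone, 1.44 to 1.644 under vehicle). This ratio and the treatment therefore cannot be told apart at the end of treatment. With the ratio as a covariate, 86 probe sets were called there in place of 2344. After withdrawal the ratio was 1.62 ± 0.179 under testosterone and 1.77 ± 0.154 under vehicle, p = 0.2 by the same exact permutation test.

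At the end of treatment Cyp3a41 and Cyp3a44 were far lower with testosterone, Cyp3a13 fell modestly, Cyp3a11 rose slightly, and Cyp3a25 and Cyp3a16 did not pass the test. The limma fit thus called 4 of the 6, 1 higher and 3 lower, at an adjusted p under 0.05, where 19.4% of all 12108 probe sets tested were called, 9.31% higher and 10.1% lower. Over all probe sets these were 1127 higher and 1217 lower as deposited, and 1253 and 983 after median centring. By deposited signals the groups of all 6 did not overlap, against 38.2% of all probe sets tested, but for Cyp3a16 this rests on signals under the floor, which have no order.

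Cyp3a41, annotated to the female-predominant pair of copies, read 2239, 2819 and 2865 in the vehicle mice and 66.1, 45.1 and 47.9 in the testosterone mice at the end of treatment. Every vehicle mouse was far above every testosterone mouse, and all 12 arrays of the study read above their median. The fall was 50.2-fold, from 2641 ± 349 to 53.0 ± 11.4 (SD, n = 3), a log2 change of -5.65 ± 0.40 (SE; adjusted p = 5.1e-07 by limma). The call was made in all 19 alternative settings of this comparison, with log2 changes from -7.33 to -5.27.

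Cyp3a44, the other female-predominant form, read 96.9, 144 and 150 in the vehicle mice against 13.2, 12.6 and 20.4 in the testosterone mice. The groups were well apart, but only 1 of the 3 testosterone mice read above its array's median, so the lower level lies in the dim range of the array. The fall was 8.49-fold (log2 change -3.09 ± 0.41, adjusted p = 0.000194). It was called in all 19 alternatives, with log2 changes from -5.31, with the actin ratio as a covariate, to -2.21, with 16 added to each signal in place of the floor. Cyp3a16 passed the signal filter through vehicle mice alone and Cyp3a44 mainly through them. Entry in this way favours probe sets that differ between the treatments, so a call of such a probe set is not independent of the filter.

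Cyp3a16, the form known from fetal and newborn liver, was dim throughout. The vehicle mice read 31.9, 3.69 and 43.9, and the testosterone mice 0.177, 0.309 and 0.174. One vehicle mouse, mouse 2, therefore lay under the floor together with all testosterone mice. With these set to the floor the level was 3.91-fold lower (log2 change -1.97 ± 0.93, adjusted p = 0.151) and was not called. Without vehicle mouse 2 the change was -2.95 with an adjusted p = 0.0393, and with the 10th percentile of signals as floor it was -4.05 with an adjusted p = 0.0219.

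Cyp3a13, the form that lies apart on the chromosome, read 893, 1264 and 887 in the vehicle mice and 704, 657 and 700.5 in the testosterone mice. Mouse 2 was the highest vehicle mouse, and the lowest vehicle mouse was still above the highest testosterone mouse. The fall was 1.46-fold, from 1015 ± 216 to 687 ± 26.0 (SD, n = 3), a log2 change of -0.54 ± 0.13 (adjusted p = 0.0107). It was -0.37 (adjusted p = 0.0333) without vehicle mouse 2. The call was lost with the actin ratio as a covariate (-0.78, adjusted p = 0.278) and with no filter on dim probe sets (adjusted p = 0.0594). The summed signal of the 10 Kupffer cell and macrophage markers was lower in testosterone mice too, at 3406 to 5323 in these vehicle mice and 2395 to 3011 in the testosterone mice. The part of these markers in the result was not tested.

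Cyp3a11, the main adult form, read 3929, 4224 and 4138 in the vehicle mice and 4698, 4859 and 4916 in the testosterone mice. The testosterone mice were all higher, by a small step. The rise was 1.18-fold, from 4097 ± 152 to 4825 ± 113 (SD, n = 3), a log2 change of 0.24 ± 0.07 (adjusted p = 0.0274). The change stayed positive in all 19 alternatives (0.21 to 0.32), but the call was lost in 8 of them, among them median centring (adjusted p = 0.0714), the actin ratio as a covariate (0.417), and leaving out vehicle mouse 1 (0.0996) or testosterone mouse 1 (0.0553), 2 (0.0811) or 3 (0.0805). The probe set is among the brightest of the array, at 62.1% to 78.1% of the highest signal, with 15 to 47 probe sets above it; whether its scale is compressed there was not tested. Small intestine markers (5 of 8 on the array, 1 past the filter) summed to 409 to 489.4 in these vehicle mice and 545.6 to 610.2 in the testosterone mice. Exocrine pancreas markers (7 of 10 on the array, 2 past the filter) summed to 224.8 to 248.8 and 312.9 to 378.1. Not all pancreas markers rose with their sum. Cpa1 lay at or under the floor in all of these mice, and Ctrb1 in all testosterone mice but not in all vehicle mice. The part of either marker set in the result was not tested.

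Cyp3a25, a further adult form and the neighbour of Cyp3a11, read 2335, 2568 and 2565 in the vehicle mice and 2793, 2736 and 2755 in the testosterone mice. Here too the groups did not overlap. The log2 change of 0.15 ± 0.07 was not called (adjusted p = 0.162), and its 95% interval ran from -0.0051 to 0.31.

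**Figure D2:**
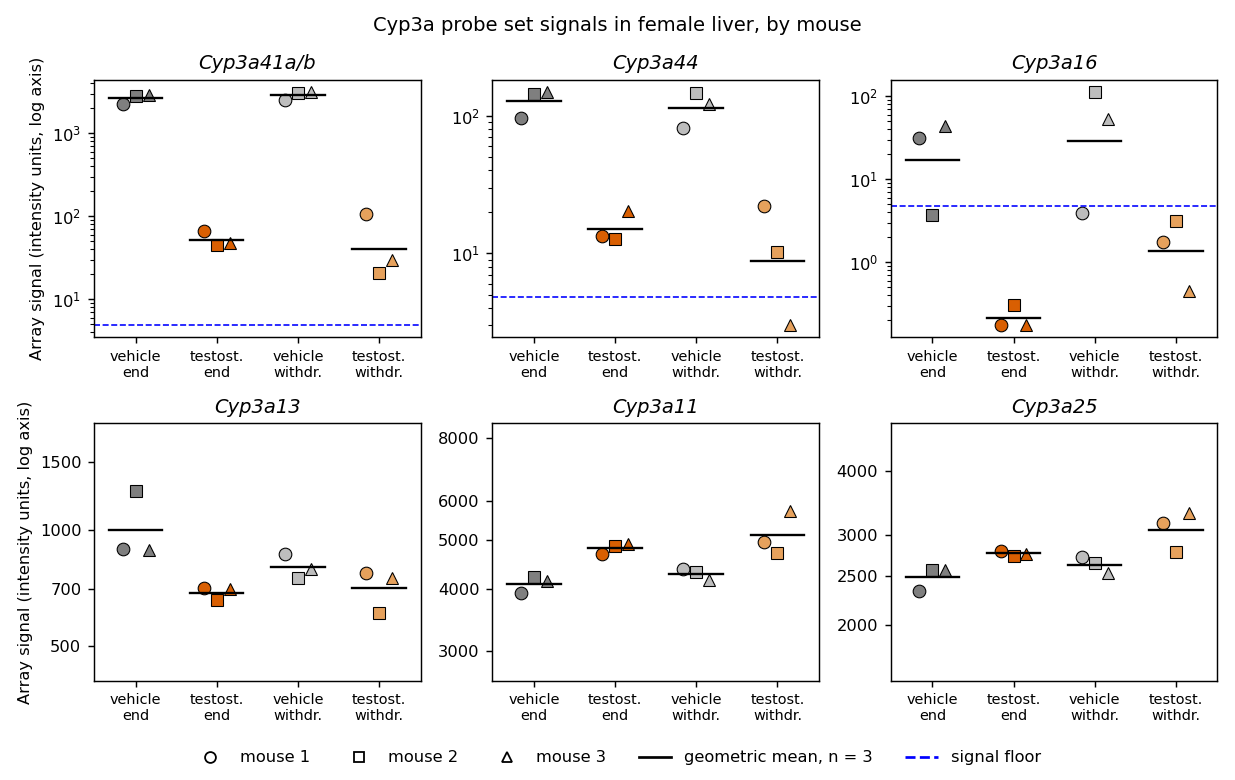
Array signal (log axis) of each Cyp3a probe set in each mouse of the 4 groups; marker shape gives the mouse number, bars are geometric means of the deposited signals (n = 3) and the dashed line, where drawn, is the signal floor of 4.84. Cyp3a41 lies between 2239 and 3163 in vehicle mice and between 20.8 and 106 in testosterone mice, while the Cyp3a11 and Cyp3a25 panels span a narrow range.

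After withdrawal Cyp3a41 and Cyp3a44 were again far lower in mice that had received testosterone, and Cyp3a11 was again slightly higher, whereas Cyp3a13 did not pass the test. Of the 6, limma called 3, 1 higher and 2 lower, where 4.9% of all probe sets tested were called, 2.16% higher and 2.73% lower. That split over all probe sets depends on scaling, with 262 higher and 331 lower as deposited and 333 and 215 after median centring. By deposited signals the groups of 5 of the 6, all but Cyp3a13, did not overlap, against 24% of all probe sets tested, and for Cyp3a16 this again rests on signals under the floor.

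For Cyp3a41 the vehicle mice read 2482, 3061 and 3163 and the testosterone mice 106, 20.8 and 30.1. Testosterone mouse 1 was thus the highest of its group, though still far under the vehicle mice. The level was 71.2-fold lower (log2 change -6.15 ± 0.40, adjusted p = 2.22e-07), with a change of -6.85 without that mouse. The call was made in all 19 alternatives.

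Cyp3a44 read 81.7, 147 and 121 in the vehicle mice and 22.2, 10.1 and 2.99 in the testosterone mice. Mouse 1 was again the highest of the testosterone group, 0 of the 3 read above the array's median, and mouse 3 was under the floor. With that mouse set to the floor the ratio of geometric means was 11-fold (log2 change -3.46 ± 0.41, adjusted p = 0.000116), and the call was made in all 19 alternatives. With 16 added to each signal in place of the floor the change was -2.28.

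Cyp3a16 read 3.89, 114 and 53.6 in the vehicle mice and 1.77, 3.13 and 0.455 in the testosterone mice. Vehicle mouse 1 lay under the floor together with all testosterone mice. With these set to the floor the level was 6.39-fold lower and was not called (log2 change -2.68 ± 0.93, adjusted p = 0.12); without vehicle mouse 1 it was -4.01 with an adjusted p = 0.00452. The vehicle values of this gene spread widely at both times, with a coefficient of variation of 77.9% at the end and 96.5% after withdrawal.

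Cyp3a13 read 867, 750.0 and 793 in the vehicle mice and 771, 608 and 749 in the testosterone mice, and these groups overlapped. The change of -0.18 ± 0.13 was not called (adjusted p = 0.46; 95% interval -0.82 to -0.26 at the end of treatment and -0.46 to 0.094 here). The Kupffer cell and macrophage markers summed to 1646 to 3085 in these vehicle mice and 2048 to 2261 in the testosterone mice, so that they overlapped as well.

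Cyp3a11 read 4375, 4325 and 4166 in the vehicle mice and 4964, 4720 and 5709 in the testosterone mice. Mouse 3 of the testosterone group was the highest of all 12. The rise was 1.19-fold (log2 change 0.25 ± 0.07, adjusted p = 0.0474). The change stayed positive in all 19 alternatives, but the call was lost in 11 of them, with adjusted p from 0.0334 to 0.299 over all 19. Among those that lost the call were leaving out testosterone mouse 3 (0.17, adjusted p = 0.185), leaving out vehicle mouse 1 (0.0686), 2 (0.129) or 3 (0.175), and the replicate block (0.0823). Quantile normalization gave a smaller change, 0.11 (adjusted p = 0.299). The small intestine markers, of which 1 passed the filter, summed to 426.1 to 488.8 in these vehicle mice and 501.5 to 613.9 in the testosterone mice. The exocrine pancreas markers summed to 112.8 to 205.8 and 320.9 to 1305. The part of either marker set in the result was not tested.

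Cyp3a25 read 2713, 2641 and 2524 in the vehicle mice and 3162, 2782 and 3308 in the testosterone mice, with no overlap. The change of 0.23 ± 0.07 was not called (adjusted p = 0.0916; 95% interval 0.073 to 0.38). Without testosterone mouse 2 it was 0.30 with an adjusted p = 0.0416.

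**Figure D3:**
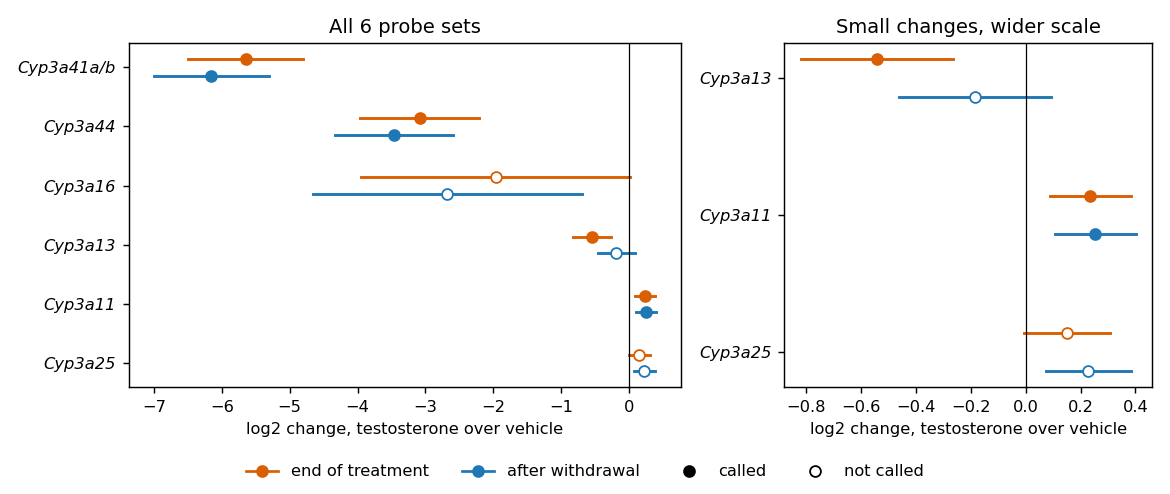
Log2 change of testosterone over vehicle for each Cyp3a probe set at the end of treatment and after withdrawal, with 95% intervals of the limma fit; filled points were called at an adjusted p under 0.05, and the right panel enlarges the small changes. Cyp3a41 lies at -5.65 and -6.15, and Cyp3a11 at 0.24 and 0.25.

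The effect of testosterone was then compared between the times, which share no mice. All 6 probe sets had the same sign at both times. Limma called 0 of the 6 for the difference of the effects, and 0 had an unadjusted p under 0.05; 4.77% of all probe sets tested were called. The difference was -0.50 for Cyp3a41 (95% interval -1.71 to 0.70), -0.37 for Cyp3a44 (-1.60 to 0.86), 0.018 for Cyp3a11 (-0.19 to 0.23), 0.078 for Cyp3a25 (-0.14 to 0.30) and 0.36 for Cyp3a13 (-0.037 to 0.75). For Cyp3a16 the interval was wide, from -3.50 to 2.09. These intervals do not show that the effects were equal.

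Within each treatment the times were compared too. In vehicle mice 0 of 6 were called by limma between withdrawal and end, with 1 at an unadjusted p under 0.05, namely Cyp3a13, whose change of -0.32 had an adjusted p = 0.108; 16.4% of all probe sets tested were called. Of the 6, 1 had vehicle groups that did not overlap, again Cyp3a13, against 34.8% of all probe sets. In testosterone mice 0 of 6 were called, and 0 had an unadjusted p under 0.05, where 10.2% of all probe sets were called. The 1 whose testosterone groups did not overlap, against 31.1% of all probe sets, was Cyp3a16, which lay under the floor in both. The level of Cyp3a41 in testosterone mice was 53.0 ± 11.4 at the end and 52.3 ± 46.7 (SD, n = 3) after withdrawal. These values depend on testosterone mouse 1 of the withdrawal time. Without it, Cyp3a41 was lower after withdrawal than at the end (log2 change -1.06, adjusted p = 0.00395), as was Cyp3a44 (-1.10, adjusted p = 0.0421), and the difference of effects for Cyp3a41 was -1.20 with an adjusted p = 0.0117. Leaving out that mouse also moved the count of calls over all probe sets for testosterone against vehicle after withdrawal from 593 to 1012. The exocrine pancreas markers summed to 761.5 in that mouse, 1305 in mouse 2 and 321 in mouse 3.

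The brighter forms were also ordered by their level in the 4 groups. Cyp3a41 was highest in vehicle mice after withdrawal, then in vehicle mice at the end, and these 2 groups overlapped, as did the 2 testosterone groups below. Cyp3a11 and Cyp3a25 were highest in testosterone mice after withdrawal, followed by testosterone mice at the end, vehicle mice after withdrawal and vehicle mice at the end. The neighbours of like treatment overlapped for both. Cyp3a13 was highest in vehicle mice at the end, and the other 3 groups lay between 608 and 867.

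The genes whose log2 signal followed each member most closely over the 12 mice were found by Pearson correlation, given as a description, since all values come from the same arrays and from groups that lie apart. Cyp3a41 was followed most closely by Sult2a2 (r = 0.993), a sulfotransferase, Cyp2b13 (0.99) and Mmd2 (0.987). Cyp3a44 went with a probe set of the drug exporter gene Abcb1a (0.971; not the probe set given for this gene below), with Cyp3a41 (0.97) and with a probe set joined to H2-T9, H2-T22 and H2-T10 (0.969). Cyp3a11 and Cyp3a25 were each other's closest match (0.928), followed by Cox7a2 (0.927) and Chpt1 (0.917) for Cyp3a11 and by Aldh1a1 (0.907), a retinal dehydrogenase, and Swsap1 (0.902) for Cyp3a25. Cyp3a13 went with Ly6g2 (0.961), Il13ra1 (0.943) and Vwa5a (0.935), and Cyp3a16 with Tap2 (0.902), Atad3a (0.901) and Wdfy2 (0.897). Close paralogs can bind each other's probes; the probes' sequences were not used here, and the share of such binding was not tested.

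Among the receptors and transcription factors that act on P450 genes, calls went in both directions at the end of treatment. Of 17 tested of 20 listed, 6 rose and 2 fell, with a median log2 change of 0.258, where 19.4% of all probe sets were called. Nr1i2, the gene of PXR, read 81.7, 91.1 and 87.4 in vehicle and 73.0, 65.4 and 70.3 in testosterone mice (-0.32 ± 0.12, adjusted p = 0.0718). Nr1i3, the gene of the receptor CAR, fell 2.23-fold, from 419 ± 36.0 to 192 ± 48.4 (adjusted p = 0.000535). Onecut1 rose 3.41-fold, from 47.0 ± 4.66 to 162 ± 30.7 (adjusted p = 0.00137). Whether it acts on the Cyp3a genes was not tested. Foxa1 (2.09-fold), Cebpb (1.63-fold), Foxa2 (1.5-fold) and Hnf4a (1.24-fold, adjusted p = 0.0294) rose, and Rxra, the partner of both receptors, rose 1.29-fold. Ahr, the dioxin receptor, fell 1.56-fold; Ahr and Rxra are named after their values were seen, to complete the counts.

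After withdrawal 0 of these 17 were called higher and 1 lower, with a median of -0.0834, where 4.9% of all probe sets were called. The one called was Foxa2, 1.85-fold lower than in vehicle mice (adjusted p = 0.00116). Its vehicle level was 73.5 ± 10.9 at the end and 189 ± 14.3 after withdrawal (SD, n = 3). In testosterone mice it was 110 ± 16.5 and 102 ± 2.62. The effect on Foxa2 differed between the times (-1.47 ± 0.19, adjusted p = 0.00162 by limma). Nr1i2 (-0.35, adjusted p = 0.11), Nr1i3 (-0.53, adjusted p = 0.103) and Hnf4a (0.18, adjusted p = 0.303) were not called. Onecut1 was not called either (0.17, adjusted p = 0.80), with 54.4 ± 27.7 in vehicle and 58.2 ± 18.8 in testosterone mice, and its effect differed between the times (-1.60 ± 0.43, adjusted p = 0.0474).

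In the growth hormone axis, through which sex-biased P450s are known to be set, 2 of 11 tested of 14 listed rose and 3 fell at the end of treatment, with a median of -0.0986, where 19.4% of all probe sets were called. Cish, an inhibitor induced by STAT5, rose 3.33-fold and Socs3 2.29-fold, while Igfals fell 1.56-fold and Igf1, named after its value was seen, 1.39-fold. Cux2, a repressor known from female liver, fell at least 6.0-fold, and read 35.7, 20.6 and 33.5 in vehicle and 0.721, 1.85 and 1.13 in testosterone mice. Its probe set passed the signal filter through vehicle mice alone. After withdrawal 1 rose and 2 fell, with a median of -0.314, where 4.9% of all probe sets were called. Cux2 was at least 5.53-fold lower and Cish fell 3.01-fold. Bcl6, a repressor known from male liver, was 8.04-fold higher, at 179 ± 43.0 against 22.2 ± 5.03 in vehicle mice. When treatment ended, Bcl6 was not called (log2 change -0.014, adjusted p = 0.974 by limma). It then read 56.9 ± 7.03 under vehicle and 58.7 ± 20.5 under testosterone. From that time to withdrawal, Bcl6 fell 2.59-fold under vehicle (adjusted p = 0.00303) and rose 3.13-fold under testosterone (adjusted p = 0.000919).

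Other genes that PXR and CAR are known to induce did not move as 1 group. Of 14 tested of 18 listed, 4 rose and 5 fell at the end, with a median of 0.0398, against 19.4% of all probe sets called. Cyp2b10, the classic CAR target, fell 2.65-fold (adjusted p = 0.00545), Abcb1a fell 2.90-fold, the transporter Slco1a4 2.15-fold and the sulfate donor enzyme Papss2 1.86-fold. The fifth that fell was Gstm2 (1.81-fold), and those that rose were Ces2a (1.42-fold), Abcc2 (1.32-fold), Aldh1a1 (1.31-fold) and Cyp2c29 (1.23-fold), all 5 named after their values were seen. After withdrawal 1 rose, Ces2a (1.31-fold), and 4 fell, with a median of -0.107, against 4.9% of all probe sets called. Cyp2b10 was 5.06-fold lower, with vehicle levels of 114 ± 6.01 at the end and 325 ± 67.9 after withdrawal (SD, n = 3). Abcb1a was 4.32-fold lower with 1 mouse set to the floor, Papss2 fell 1.66-fold and Slco1a4 1.62-fold. The difference of effects between the times was not called by limma for this probe set of Abcb1a (-0.57, adjusted p = 0.529). It was not called for the probe set that followed Cyp3a44 either, where its sign was the other (0.31, adjusted p = 0.728).

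The partners that P450s need were read next, where 19.4% of all probe sets were called at the end and 4.9% after withdrawal. Of 5 listed electron donors and related proteins, 4 were tested: Cyb5a, Cyb5b, Cyb5r3 and Pgrmc1. At the end 1 rose and 0 fell, namely the cytochrome b5 of the outer mitochondrial membrane, Cyb5b (1.28-fold, adjusted p = 0.0333 by limma). Cyb5a, another cytochrome b5 and named after its value was seen, had a log2 change of 0.050 (adjusted p = 0.653). After withdrawal 0 of the 4 were called. Por was not analysed here. Of 8 tested of 9 heme genes, 1 rose and 1 fell at the end, namely Cpox, of heme synthesis (2.13-fold), and Hmox1, of heme breakdown (2.25-fold lower), and 0 were called after withdrawal. Alas1, the rate-limiting enzyme of heme synthesis, had changes of 0.093 ± 0.31 (adjusted p = 0.863) and 0.16 ± 0.31 (adjusted p = 0.812).

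The pattern of large falls beside small rises was set against the other cytochrome P450 genes. Of 41 tested of 58, 11 rose and 13 fell at the end (median -0.199), where 19.4% of all probe sets were called, and 7 rose and 9 fell after withdrawal (median 0.0382), where 4.9% were called. The largest falls were those of Cyp2b13 (at least 228-fold and at least 192-fold) and Cyp2b9 (75.0-fold and 21.3-fold), and Cyp17a1, named after its values were seen, fell 9.38-fold and 3.84-fold. The largest rises were those of Cyp4a12a (at least 127-fold and at least 55.4-fold) and Cyp2d9 (18.4-fold and 22.9-fold). Cyp2b13 passed the signal filter through vehicle mice alone, and Cyp4a12a through testosterone mice alone. The falls of Cyp3a41, 50.2-fold and 71.2-fold, lay between those of Cyp2b9 and Cyp17a1 at the end and between those of Cyp2b13 and Cyp2b9 after withdrawal. No Cyp3a probe set rose by more than 1.19-fold. Of the other P450s, 6 had an effect that differed between the times and 35 did not pass that test, which called 4.77% of all probe sets.

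**Figure D4:**
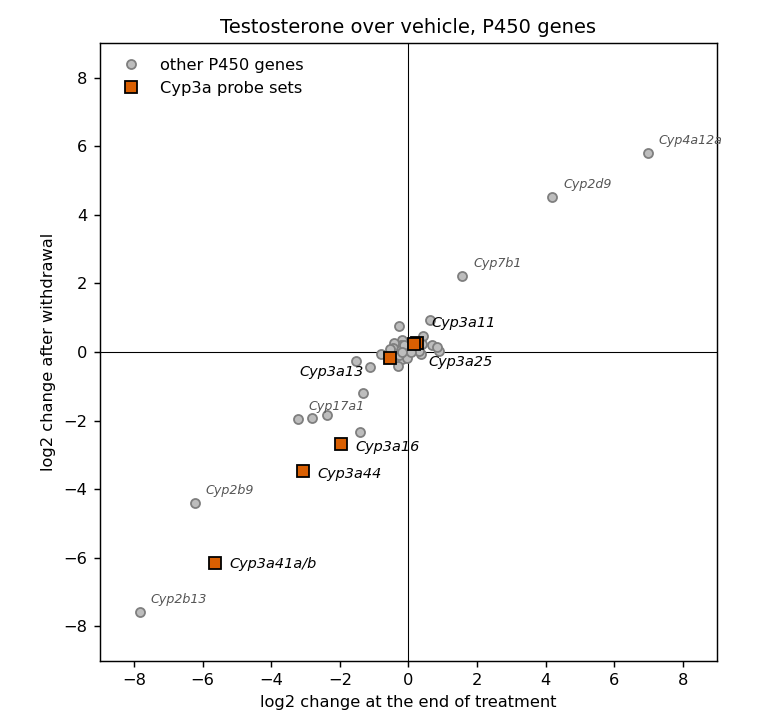
Log2 change of testosterone over vehicle at the end of treatment (x axis) and after withdrawal (y axis) for the 6 Cyp3a probe sets (squares) and 41 other P450 genes (circles), each point 1 probe set. Cyp3a41 lies at -5.65 and -6.15, near the lower left corner with Cyp2b13 and Cyp2b9, and Cyp3a11 and Cyp3a25 lie close to the origin.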

How the data were processed

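The authors deposited 1 linear intensity for each probe set and array. GCOS and MAS5 are named, without versions, in the submitters' processing notes. Every array had a 2% trimmed mean of 100.05, and the arrays were used without further scaling. Probe sets were named by the platform annotation. Signals under 4.84, the 25th percentile of the 22626 non-control probe sets, were set to that value before log2. Probe sets above the array's median signal on at least 3 of 12 arrays were tested (12108) with R 4.3.3 and limma 3.58.1 (lmFit, eBayes with a variance trend) on 4 group means, two-sided, with Benjamini-Hochberg adjustment over all 12108. Probe sets rather than genes were fitted because Cyp3a paralogs can share them. The fit was also run on simulated data with known changes, and no outcome of that run is given here. Folds are ratios of geometric means with signals under the floor set to it; "at least" marks those where this affected the dimmer group alone and the ratio of the deposited means was larger. Sequences are RefSeq's (GRCm38.p6), aligned with Biopython 1.88 (match 1, mismatch -1, gap opening -3, extension -0.5). The named probe sets, the gene lists, and up to 4 called genes per list were set by rule; the members and lists were chosen with earlier results of these data known. Alternatives covered floor, filter, scaling, variance model, samples, replicate block, actin ratio, probe set choice and single mice.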

Additional observations from a re-analysis of the deposited data

How the results depend on the processing

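Cyp3a41 and Cyp3a44 were called lower in all 19 alternatives at each time. The count of 4 called at the end of treatment was 2 with no filter on dim probe sets and 2 with the actin ratio as a covariate; leaving out 1 mouse gave 3 to 5 there, 2 to 4 after withdrawal in place of 3, 0 to 1 for the difference of effects and 0 to 2 for testosterone mice between the times. The replicate block left 4 called at the end and 2 after withdrawal, where it ended the call of Cyp3a11. The deviations of same-numbered mice from their group means correlated at -0.159 to 0.0512. With 3 mice per group, these correlations cannot settle whether the numbers mark something shared. Some changes that were not called had another sign. With the actin ratio as a covariate the difference of effects was -0.091 for Cyp3a11, 0.58 for Cyp3a16, 1.65 for Cyp3a41 and 2.48 for Cyp3a44; between the times it gave 1.01 for Cyp3a41 and 1.28 for Cyp3a44 in testosterone mice, and -0.64 for Cyp3a41 in vehicle mice. Quantile normalization gave differences of -0.13 for Cyp3a11 and -0.027 for Cyp3a25, and -0.072 for Cyp3a11 between the times in testosterone mice. Median centring gave -0.034 for Cyp3a11 and -0.023 for Cyp3a25 in vehicle mice and -0.0074 for Cyp3a13 in testosterone mice. With the 10th percentile as floor the difference for Cyp3a16 was 0.048. The cause was not tested in any of these. Leaving out 1 mouse gave ranges across 0 for the difference of effects of Cyp3a11 (-0.062 to 0.076), Cyp3a16 (-2.05 to 0.27) and Cyp3a44 (-0.93 to 0.17), for Cyp3a16 (-0.27 to 2.05) and Cyp3a44 (-0.37 to 0.061) in vehicle mice, and for Cyp3a13 (-0.026 to 0.15) and Cyp3a41 (-1.06 to 0.11) in testosterone mice between the times. Over all probe sets, the 2344 called at the end became 1509 with no filter, 86 with the actin ratio, 1364 with 1 probe set per symbol and 1452 without the _s_at, _x_at and _a_at sets, and 1402 to 2051 without 1 mouse; the 593 after withdrawal became 341, 360 (actin ratio) and 302 to 1012; the 578 for the difference became 63, 1, 171 and 355 in the same order, 334 without a variance trend, 253 with the block and 108 to 1497; the 1991 in vehicle mice became 1041, 277 (actin ratio) and 712 to 2127, and the 1230 in testosterone mice 712, 159 (actin ratio), 794 (suffixed sets left out) and 667 to 1664. No value is given for Cyp3a16 between the times in testosterone mice, which all lay under the floor, nor with the filter on mean signal, which removed it. The number of arrays limits precision, and Cyp3a16 and Cyp3a44 lie near the floor, where detection calls were not used here.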
